A study of Mus musculus with 9 samples.

Results

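Bcl11a and 40 genes for subunits of chromatin complexes were described in mouse hematopoietic stem cells (HSCs) carrying 0, 1 or 2 deleted copies of Bcl11a. The members were listed by name, from the NuRD complex (13 genes), the SWI/SNF complexes (21 genes) and other corepressor assemblies (6 genes). Listing by name used no measured value, but the list was made with earlier results of these data known. Where a gene had several probe sets, their measured levels decided which of them stood for it, as described below. Of the 41 symbols, 38 had a probe set that names 1 gene only, out of 22180 genes measured in this way, and all 38 passed the filter on dim genes. Smarcd3, Actl6a and Ncor1 were not analysed here.

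Gene expression was measured on 9 Affymetrix Mouse Gene 2.0 ST arrays, 3 for each genotype, with 1 array per biological replicate. Wild-type (WT) mice had both Bcl11a alleles floxed and no Cre. Heterozygous (Het) mice had 1 floxed allele and Mx1-Cre, and knockout (KO) mice had both alleles floxed and Mx1-Cre. Every mouse, 6 to 8 months old, was given poly(I:C) 5 times; this mimic of viral RNA raises interferon, which turns on Mx1-Cre in any cell type that responds to it. Cre is thus absent from WT alone, and KO and Het share it. In any comparison with WT, loss of Bcl11a copies and presence of Cre cannot be told apart. The sort kept cells with Kit, Sca-1 and CD150 at the surface and without CD48, Flt3 or lineage markers. It also used a YFP signal; the labels do not say which arrays held YFP-positive cells. The labels do not say whether animals were pooled.

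BCL11A is a zinc finger protein that represses transcription and is best known for silencing fetal globin genes in red cells and for its need in B lymphocytes and plasmacytoid dendritic cells. It does so by recruiting enzymes. NuRD joins a remodelling ATPase to histone deacetylases and to proteins that read methylated DNA. SWI/SNF complexes slide or evict nucleosomes, in the forms called BAF, PBAF and non-canonical BAF. CoREST removes methyl groups from histone H3 through KDM1A, while NCoR and SIN3 are scaffolds that hold histone deacetylases.

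The promoters of Bcl11a and of a pair of SWI/SNF paralogs are printed as examples and do not cover the range among the members. They are given 5′ to 3′ on the strand of the gene, from RefSeq on build GRCm38.p6, from 250 bases before to 50 bases after the start. The Bcl11a window lies at chr11:24080445-24080744 on the plus strand; capitals mark CCAAT, here on the other strand, and GGGCGG, found 2 times on the other strand. The Smarcd1 window lies at chr15:99702037-99702336 on the plus strand; capitals mark TGACCA, a motif known to be bound by BCL11A in globin promoters, found once on the other strand, and 1 GGGCGG. The Smarcd2 window lies at chr11:106267583-106267882 on the minus strand; capitals mark 1 TATAAA and 2 copies of GGGCGG.
Bcl11a: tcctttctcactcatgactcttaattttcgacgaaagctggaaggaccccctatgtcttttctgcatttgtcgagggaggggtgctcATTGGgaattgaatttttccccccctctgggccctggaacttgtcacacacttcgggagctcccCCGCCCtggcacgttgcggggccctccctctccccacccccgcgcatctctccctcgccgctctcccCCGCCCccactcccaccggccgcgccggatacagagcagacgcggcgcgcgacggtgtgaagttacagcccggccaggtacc
Smarcd1: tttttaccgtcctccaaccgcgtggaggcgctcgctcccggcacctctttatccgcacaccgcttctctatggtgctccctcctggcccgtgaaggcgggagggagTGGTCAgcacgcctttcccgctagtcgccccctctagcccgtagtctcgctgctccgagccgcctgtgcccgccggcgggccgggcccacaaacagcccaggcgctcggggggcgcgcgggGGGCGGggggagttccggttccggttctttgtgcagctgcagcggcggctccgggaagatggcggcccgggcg
Smarcd2: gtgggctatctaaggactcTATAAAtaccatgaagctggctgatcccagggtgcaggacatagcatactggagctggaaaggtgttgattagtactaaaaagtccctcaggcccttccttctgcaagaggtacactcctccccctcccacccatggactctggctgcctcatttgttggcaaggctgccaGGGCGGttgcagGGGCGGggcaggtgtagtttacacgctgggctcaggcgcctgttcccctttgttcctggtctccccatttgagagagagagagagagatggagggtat

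Most members had CpG-rich promoters. A window of 300 bases was matched by symbol for 32 of the 41 listed genes, using the first window listed where a gene had several (8 genes). Their median was 30.5 CpG dinucleotides and 64.8% GC, against 18 CpG dinucleotides and 59% GC for 12899 other genes tested. The members ranged from 2 to 50 CpG dinucleotides, and 3 had fewer than 10: Smarcd2 with 4, and Dnmt1 and Ncor1 with 2 each. Dnmt1 had 3 windows listed and Ncor1 had 2, of which the first alone was counted. Which start HSCs use was not tested. Counted on both strands, GGGCGG, the core of the Sp1 site, stood in 28 of the 32 windows (87.5%), in 56% of the other genes tested and in 35.9% of all 27025 promoters. CCGGAA, an ETS core, stood in 9 windows (28.1%, against 23% of other genes tested and 15.2% of all promoters). CCAAT stood in 12 (37.5%, against 37.9% of either set) and TATAAA in 2 (6.25%, against 9.08% and 14.2%). TGACCA stood in 1 member window, that of Smarcd1 (3.12%, against 11.7% of other genes tested and 13.6% of all promoters). A match is a run of letters and was not tested as a binding site.

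Expression values are log2 RMA summaries, in which 1 unit is a doubling, and are given as mean ± SD (n = 3 arrays per genotype). Levels depend on the probes of each gene, so genes are not ranked by level. Pearson's r across probe sets was 0.862 to 0.932 for pairs of arrays within a genotype. By Xist and Y-linked transcripts, 2 WT, 1 Het and 1 KO arrays came from female mice. These transcripts also gave a scale for absent ones: Y-linked genes read 2.22 to 3.32 in females, and Xist 3.58 to 4.22 in males. Of the 16636 genes tested, 11483 had a mean above 4.22. HSC markers were present, 8 of the 8 measured having a mean above 4.22. Their average level was 5.57 to 6.76 on WT, 6.97 to 7.24 on Het and 7.10 to 7.79 on KO arrays. Averages for granulocyte and monocyte markers were 5.90 to 6.27 on WT, 5.38 to 6.25 on Het and 5.23 to 5.66 on KO arrays. Averages for 7 B cell markers were 3.72 to 4.05, 3.67 to 3.97 and 3.47 to 3.50, where Cd79b and Pax5 alone had means above 4.22. Of the markers excluded by the gate, Flt3 was at 4.78 ± 0.709 (WT), 3.99 ± 0.0929 (Het) and 3.72 ± 0.272 (KO). Cd48 was at 4.34 ± 0.631, 4.41 ± 0.64 and 4.24 ± 0.418. Flt3 read 4.99 and 5.36 on WT replicates 1 and 3, above 4.22, and 3.99 on WT replicate 2. In sorted cells measured in bulk, fewer cells of a type and less RNA per cell cannot be told apart. The part of these shifts in the values below was not tested.

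All 38 members read above the range of absent transcripts in HSCs. Each was above 4.22 on each of the 9 arrays, as were 8245 of all 16636 genes tested. The lowest single value of a member was 4.95, for Brd9 on KO replicate 3. Member means over the 9 arrays lay between 5.49 (Bcl7c) and 10.13 (Chd3), with a median of 7.34, where the median of all 16636 genes tested was 4.87. The spread between arrays of 1 genotype had a median SD of 0.345 for the members and 0.368 for all genes tested. It was widest for Hdac1, at 1.14, followed by Brd9 at 0.806 and Hdac3 at 0.797.

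**Figure D1:**
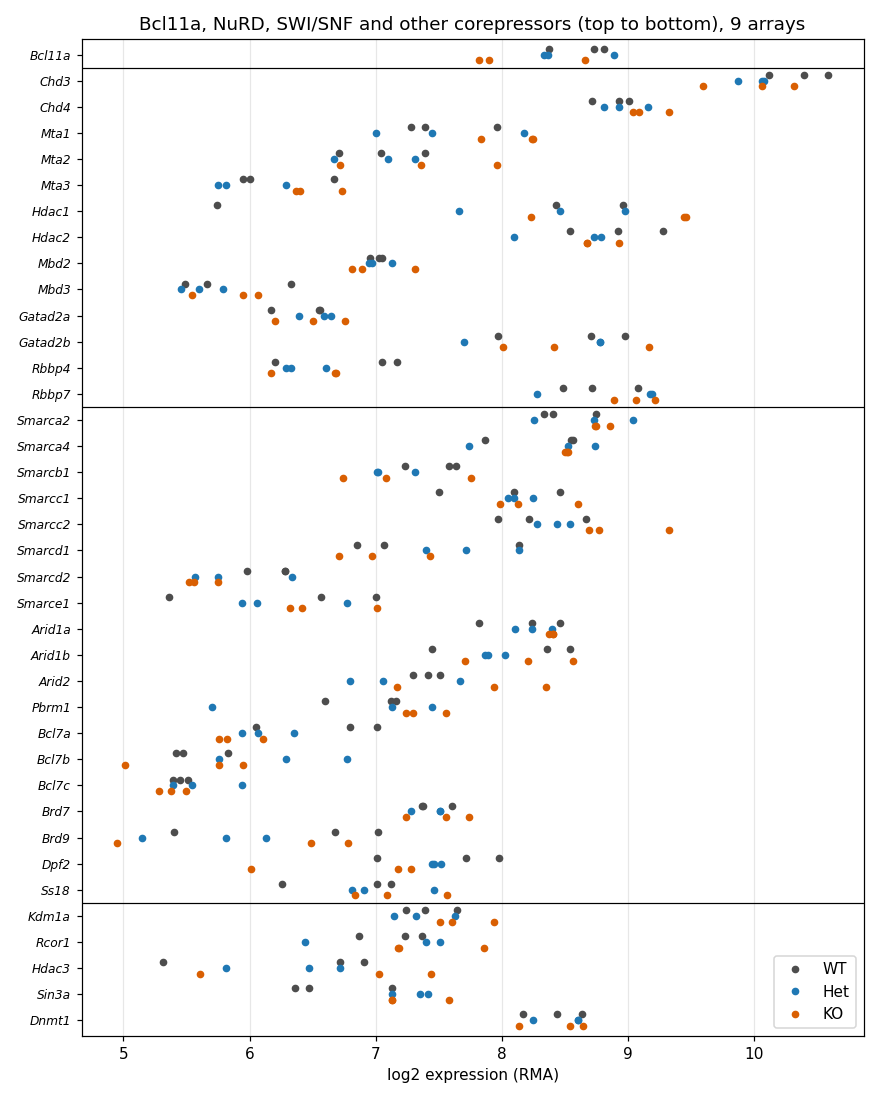
Log2 expression (x axis) of the 38 members (y axis, grouped as Bcl11a, NuRD, SWI/SNF and other corepressors) on 9 arrays; each point is an array, coloured by genotype. Points of the 3 genotypes intermingle for most members, and Hdac1 has the widest spread because WT replicate 1 read 5.74.

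Bcl11a, the targeted gene, was measured first. It read 8.73, 8.81 and 8.38 on WT replicates 1 to 3, 8.34, 8.37 and 8.89 on Het arrays and 7.82, 7.90 and 8.66 on KO arrays. KO replicates 1 and 2 were the lowest of the 9 arrays, while KO replicate 3 lay inside the WT range. Mean levels were 8.64 ± 0.229 (WT), 8.53 ± 0.309 (Het) and 8.13 ± 0.464 (KO). By limma, KO minus WT was -0.51 (95% interval -1.15 to 0.13, adjusted p = 0.655; -0.78 without KO replicate 3) and Het minus WT -0.11 (-0.75 to 0.53, adjusted p = 0.993). Permuting the arrays in an exact two-sided test gave p = 0.2 (KO) and p = 0.8 (Het), where 3 arrays against 3 can reach 0.1 at best.

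A second Bcl11a probe set behaved otherwise. It read 6.38, 8.08 and 6.93 on the WT arrays and differed by 0.07 between KO and WT. KO minus WT for the first probe set was 0.105 among female mice (1 KO and 2 WT arrays) and -0.95 among male mice (2 and 1). The female KO array is KO replicate 3, so sex and this array cannot be told apart. No source used here says where the probes lie relative to the deleted part, so neither probe set checks the deletion. The library labelled KO replicate 3 enters each KO value below. Each KO difference given for female mice rests on this library alone on the KO side.

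**Figure D2:**
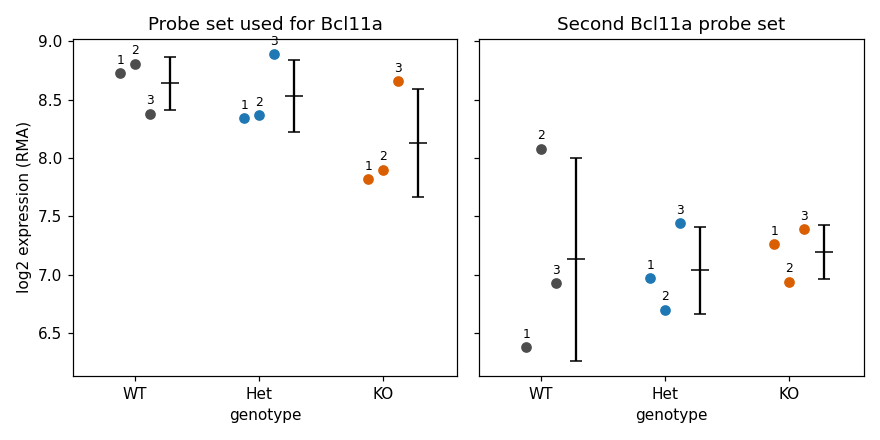
Log2 expression (y axis) of both Bcl11a probe sets by genotype (x axis); points are arrays with their replicate number, and bars give the mean and SD (n = 3). In the left panel KO replicates 1 and 2 lie at 7.82 and 7.90 and KO replicate 3 at 8.66; in the right panel the KO arrays lie inside the WT range.

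The comparison of KO with WT asks whether the partners of BCL11A differ where both copies of its gene are deleted and Cre is present. No member was called at an adjusted p under 0.05 by limma over 16636 genes (smallest adjusted p = 0.563), where 0.0421% of all genes tested were called. At an unadjusted p under 0.05, 2 members were higher, Smarcc2 and Sin3a, and 2 were lower, Bcl7a and Smarcd2. The same rule took 5.4% of all genes as higher and 2.81% as lower, so 2 of 38 members in each direction lay near what all genes gave. The count of 4 fell to 0 without WT replicate 1, to 2 without KO replicate 1 or KO replicate 3, to 2 with interquartile range as a term or with Het arrays left out of the fit, and to 1 with a prior variance that follows the level.

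More members were above WT than below it in KO cells: 24 were higher, 13 lower and Bcl7b equal, where 45.3% of all genes were higher. All genes include many dimmer ones, and the share among genes as bright as the members was not counted. This limit holds for each such share of all genes below. The average level of genes as bright as the members is given below for WT and KO arrays. The median difference was 0.12, against -0.04 for all genes tested. The median was 0.008 without WT replicate 1, 0.045 without KO replicate 1, 0.22 without KO replicate 3, 0.068 without both WT replicate 1 and KO replicate 3, 0.029 after another quantile normalization and -0.04 with interquartile range as a term. The 95% interval of a member extended a median of 0.637 to either side, and 22 of the 38 intervals lay wholly between -1 and 1, that is, within a doubling or halving.

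The average level of the members followed the spread of the arrays. It was lowest on Het replicate 2 (7.14) and WT replicate 1 (7.27), whose interquartile ranges over all probe sets were 2.39 and 2.22. It was highest on Het replicate 3 (7.60) and KO replicate 1 (7.59), whose ranges were 2.77 and 2.83. The average of the 5991 genes tested with a mean of at least 5.49, the level of the dimmest member, moved in a similar way. That average was 6.58, 6.76 and 6.95 on WT replicates 1 to 3 and 7.05, 6.97 and 6.81 on KO replicates 1 to 3. Members averaged 7.27, 7.41 and 7.56 on the same WT arrays and 7.59, 7.54 and 7.38 on the KO arrays. Of the 38 members, 11 (28.9%) had their lowest value on Het replicate 2, where 12% of all genes tested had theirs. WT replicate 1 was lowest for 8 members (21.1%, against 16.5% of all genes). KO replicate 1 was highest for 10 of the 38 members, and KO replicate 2 for 9 of the 38. These arrays were highest for 10% and 8.2% of all genes, so both held a larger share of the members.

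**Figure D3:**
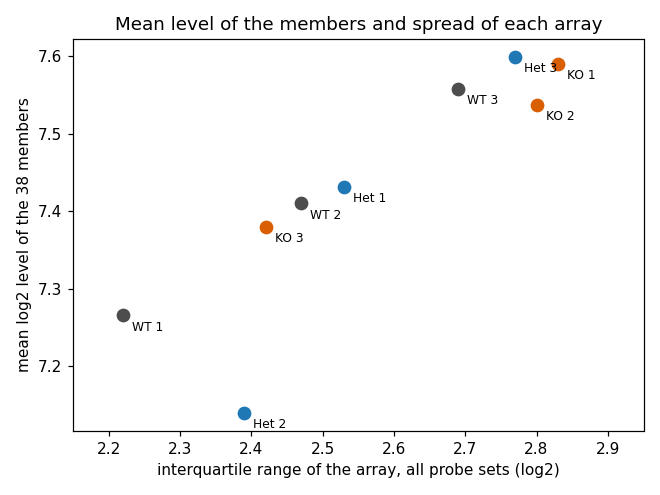
Mean log2 level of the 38 members (y axis) against the interquartile range of all probe sets on the same array (x axis, log2 units); each point is an array, labelled by genotype and replicate. Het 2 and WT 1 have the lowest member means, at 7.14 and 7.27, and the arrays with a range of at least 2.69 have the highest, at 7.54 to 7.60.

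The ATPases of NuRD are CHD3 and CHD4, which move nucleosomes. Chd3 read 10.59, 10.12 and 10.40 on WT, 10.07, 10.08 and 9.88 on Het and 10.07, 10.32 and 9.60 on KO arrays. Each Het array lay below each WT array, and KO arrays overlapped WT. Het minus WT was -0.36 (95% interval -0.91 to 0.19) and KO minus WT -0.37 (-0.93 to 0.18), the latter -0.175 without KO replicate 3. The second Chd3 probe set gave 0.16 and 0.05, so the probe sets disagreed in direction. Chd4, the main ATPase of NuRD in many tissues, read 8.93, 9.01 and 8.72 on WT and 9.04, 9.33 and 9.09 on KO arrays, all KO arrays lying above all WT arrays. Its difference was 0.27 (-0.21 to 0.74, adjusted p = 0.734). Members whose KO arrays were all above WT numbered 3 of 38 (Chd4, Smarcc2 and Pbrm1), where 6.51% of all genes were so placed, and 1 member, Smarcd2, was wholly below (7.32% of all genes).

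The deacetylases HDAC1 and HDAC2 remove acetyl groups from histones in NuRD, CoREST and SIN3 alike. Hdac1 read 5.74, 8.43 and 8.96 on WT, 8.98, 7.66 and 8.46 on Het and 9.46, 8.23 and 9.45 on KO arrays. WT replicate 1 stood far below the other 8 arrays. The KO minus WT difference of 1.34 (95% interval -0.30 to 2.98, adjusted p = 0.652) became 0.352 without that array. Hdac2 read 8.92, 9.28 and 8.54 on WT, 8.79, 8.10 and 8.73 on Het and 8.68, 8.68 and 8.93 on KO arrays. The groups of Hdac2 overlapped, with Het minus WT at -0.37 and KO minus WT at -0.15. Het minus WT was -0.153 without Het replicate 2 and -0.19 without WT replicate 2.

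MTA proteins are the scaffold of NuRD onto which the deacetylases fold. Mta1 read 7.28, 7.39 and 7.96 on WT, 7.45, 7.00 and 8.18 on Het and 8.25, 7.84 and 8.24 on KO arrays. It was 1.48-fold higher in KO than in WT cells (difference 0.57, 95% interval -0.16 to 1.29, adjusted p = 0.662), and the groups overlapped. Mta2 was at 7.05 ± 0.34 (WT) and 7.35 ± 0.62 (KO). Mta3 read 5.81, 5.75 and 6.29 on Het and 6.40, 6.37 and 6.73 on KO arrays, with no overlap, while its WT arrays spanned 5.95 to 6.67.

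The remaining NuRD subunits stayed within 0.40 of WT in both deleted groups. Mbd2 encodes the reader of methylated DNA and read 7.01 ± 0.0473 (WT), 7.02 ± 0.0987 (Het) and 7.00 ± 0.269 (KO). Mbd3, its relative with weak affinity for methylated DNA, was at 5.83 ± 0.444 (WT) and 5.85 ± 0.278 (KO). Gatad2a and Gatad2b, which join the reader to the ATPase, differed between KO and WT by 0.06 and -0.02. The histone chaperones Rbbp4 and Rbbp7, through which NuRD binds histones and partner repressors, differed by -0.29 and 0.30; the second Rbbp4 probe set gave 0.03. Over its 13 genes NuRD had a median KO minus WT difference of 0.06, with 8 higher and 5 lower. The average NuRD level was 7.70 ± 0.23 (WT), 7.64 ± 0.25 (Het) and 7.87 ± 0.068 (KO).

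SWI/SNF complexes contain 1 of 2 alternative ATPases. Smarca2 was at 8.50 ± 0.219 (WT), 8.68 ± 0.393 (Het) and 8.78 ± 0.0666 (KO). Smarca4, which hematopoietic progenitors need, was at 8.33 ± 0.399, 8.34 ± 0.527 and 8.52 ± 0.0153. Neither separated the genotypes, with KO minus WT at 0.28 (95% interval -0.27 to 0.84) and 0.19 (-0.49 to 0.86).

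Among core subunits, SMARCC1 and SMARCC2 form the dimer that nucleates assembly. Smarcc2 read 7.97, 8.67 and 8.22 on WT, 8.44, 8.28 and 8.54 on Het and 8.77, 8.69 and 9.33 on KO arrays. All KO arrays were above all WT and Het arrays. The KO level was 1.56-fold above WT (difference 0.64, 95% interval 0.05 to 1.23, unadjusted p = 0.035, adjusted p = 0.578). The difference was 1.235 among female mice (1 KO and 2 WT arrays) and 0.06 among male mice (2 and 1). Smarcc1 differed by 0.22.

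SMARCD proteins link the core to transcription factors, and SMARCD2 is known for its need in granulocyte maturation. Smarcd2 read 6.28, 5.98 and 6.28 on WT, 6.34, 5.75 and 5.57 on Het and 5.75, 5.52 and 5.56 on KO arrays. The KO arrays lay below all WT arrays and Het arrays spanned both ranges. KO was at 0.674 of the WT level (difference -0.57, 95% interval -1.13 to -0.01, unadjusted p = 0.0456, adjusted p = 0.594). The difference was -0.72 among female and -0.345 among male mice. The average of the granulocyte and monocyte markers was also lower on KO than on WT arrays, as given above, with 6 of the 9 markers lower and 3 higher. S100a8, S100a9 and Lyz2 lay wholly below WT and Itgam wholly above. The part of these cells in the Smarcd2 value was not tested.

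Smarcd1 read 6.85, 8.14 and 7.07 on WT, 8.14, 7.72 and 7.40 on Het and 7.43, 6.97 and 6.71 on KO arrays. KO and Het arrays overlapped slightly, with a difference of -0.72 (95% interval -1.53 to 0.09). The second Smarcd1 probe set gave 0.06 for KO minus Het and 0.67 for KO minus WT, where the first gave -0.32, so the probe sets disagreed in direction. Smarcb1, a core subunit and tumour suppressor, differed between KO and WT by -0.29 and Smarce1, which contacts DNA, by 0.27.

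The ARID subunits and their partners set the form of the complex. In BAF, Arid1a was at 8.17 ± 0.325 (WT) and 8.40 ± 0.0173 (KO), and Arid1b at 8.12 ± 0.584 and 8.16 ± 0.432. Dpf2, a histone reader of BAF, read 7.98, 7.01 and 7.72 on WT, 7.52, 7.45 and 7.46 on Het and 7.18, 7.28 and 6.01 on KO arrays. Its KO arrays were below all Het arrays, the lowest being KO replicate 3, and KO minus WT was -0.75 (95% interval -1.56 to 0.07, adjusted p = 0.628). That difference was -0.34 without KO replicate 3, and it was -1.84 among female and 0.22 among male mice. In PBAF, Arid2 differed between KO and WT by 0.41, Pbrm1, a reader with many bromodomains, by 0.41 and Brd7, a bromodomain subunit, by 0.06. Brd9, which marks non-canonical BAF, read 6.68, 5.40 and 7.02 on WT and 6.78, 6.49 and 4.95 on KO arrays, so that neither genotype had a narrow range. Ss18, a subunit of BAF and non-canonical BAF that is fused to another gene in synovial sarcoma, differed by 0.37.

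BCL7 proteins are small accessory subunits of all forms. Bcl7a read 6.80, 7.01 and 6.05 on WT, 6.07, 5.94 and 6.35 on Het and 5.76, 6.11 and 5.82 on KO arrays. WT replicates 1 and 2 were above the other 7 arrays, while WT replicate 3 lay among them. KO was at 0.606 of the WT level (difference -0.72, 95% interval -1.35 to -0.10, unadjusted p = 0.0274, adjusted p = 0.563) and Het minus WT was -0.50 (-0.305 without WT replicate 2). KO minus WT was -0.605 among female and -1.075 among male mice. Bcl7b read 5.42, 5.47 and 5.83 on WT, 6.29, 5.76 and 6.77 on Het and 5.76, 5.95 and 5.01 on KO arrays, so that Het was 0.70 above both WT and KO (95% interval for Het minus WT -0.03 to 1.43; 0.452 without Het replicate 3). Bcl7c stayed at 5.45 ± 0.06 (WT), 5.62 ± 0.284 (Het) and 5.39 ± 0.11 (KO). Over the 19 SWI/SNF genes the median KO minus WT difference was 0.06, with 11 higher, 7 lower and 1 equal.

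Of the other corepressors, SIN3A is the scaffold of the SIN3 deacetylase complex. Sin3a read 6.36, 6.47 and 7.13 on WT, 7.13, 7.42 and 7.35 on Het and 7.58, 7.13 and 7.13 on KO arrays. WT replicates 1 and 2 were the lowest of the 9 arrays, and WT replicate 3 equalled the lowest Het and KO values. KO was 1.54-fold (difference 0.63, 95% interval 0.04 to 1.21, adjusted p = 0.586) and Het 1.57-fold (0.65, 0.06 to 1.23, adjusted p = 0.972) above WT. Both differences use the same 3 WT arrays, and KO minus Het was -0.02. The KO difference was 0.385 among female and 0.885 among male mice.

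CoREST was represented by its demethylase and its scaffold. Kdm1a read 7.65, 7.39 and 7.24 on WT, 7.32, 7.15 and 7.63 on Het and 7.61, 7.94 and 7.51 on KO arrays. KO minus WT was 0.26 (95% interval -0.26 to 0.78) and KO minus Het 0.32. Rcor1 read 7.37, 6.87 and 7.23 on WT, 7.40, 6.44 and 7.51 on Het and 7.86, 7.18 and 7.19 on KO arrays, with Het replicate 2 the lowest. Hdac3, the deacetylase of NCoR, was at 6.31 ± 0.874 (WT), 6.33 ± 0.47 (Het) and 6.69 ± 0.96 (KO). Dnmt1, which copies DNA methylation at replication, read 8.44, 8.17 and 8.64 on WT, 8.61, 8.25 and 8.61 on Het and 8.14, 8.65 and 8.54 on KO arrays, with KO minus WT at 0.03 (-0.51 to 0.56). All 5 corepressor genes had a KO mean above WT (45.3% of all genes), with a median difference of 0.26. Among their 95% intervals, that of Sin3a alone left out 0, before adjustment. The Hdac3 difference was 0.007 without KO replicate 1 and -0.122 without WT replicate 2.

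**Figure D4:**
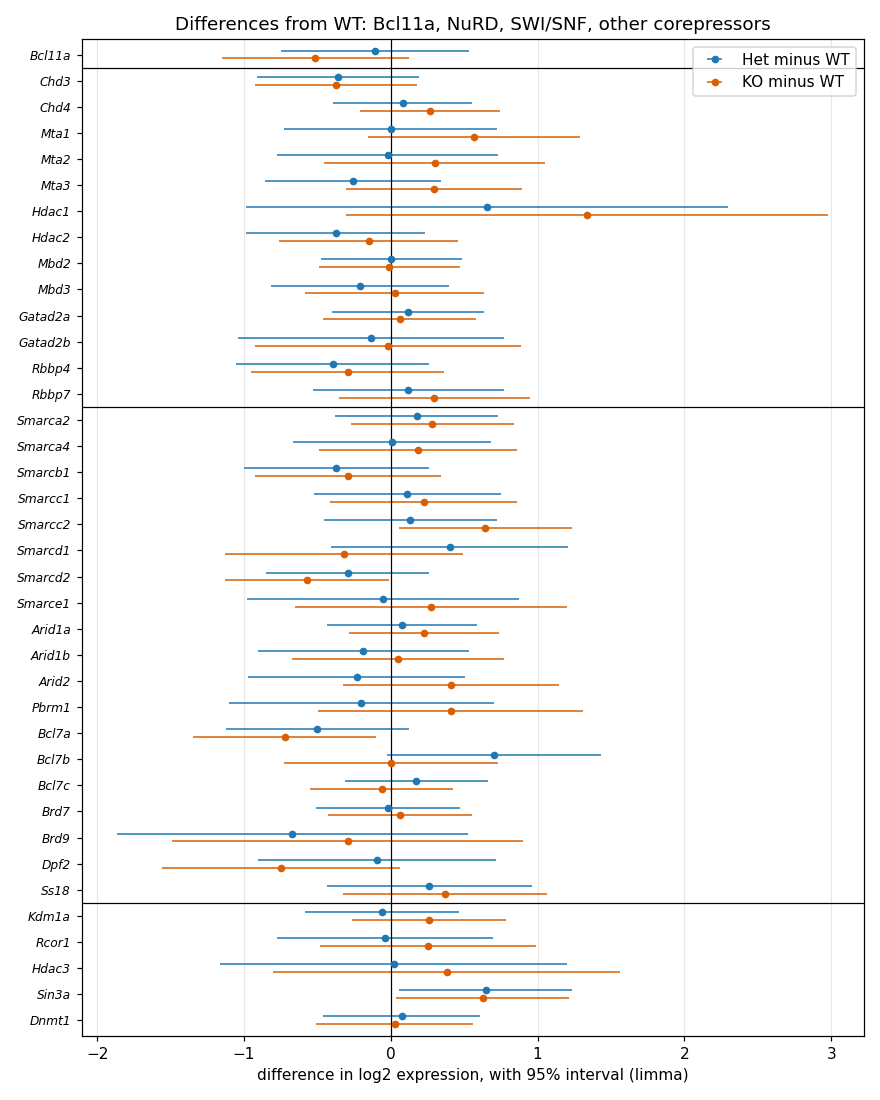
Difference in log2 expression from WT (x axis) for each member (y axis, same order as the plot of levels) in Het and KO cells; points are limma estimates and lines 95% intervals, from 9 arrays. The KO intervals of Smarcc2, Sin3a, Smarcd2 and Bcl7a leave out 0 before adjustment, and that of Hdac1 is the widest, from -0.30 to 2.98.

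Het against WT compares the loss of 1 copy, together with Cre, against Cre-free cells, so copy loss and Cre cannot be told apart. No member was called by limma (smallest adjusted p = 0.972), where 0% of all genes tested were called. At an unadjusted p under 0.05, 1 member, Sin3a, was higher (3.12% of all genes) and 0 were lower (1.77% of all genes). Differences split evenly, with 17 members higher (48.2% of all genes), 20 lower and Mta1 equal, and a median of -0.02 against -0.01 for all genes. Chd3 was the single member whose Het and WT arrays did not overlap, below WT (3.9% of all genes); 0 members were wholly above (4.51% of all genes). The member differences ran from -0.67 (Brd9) to 0.70 (Bcl7b), and 27 of 38 intervals lay within a doubling or halving.

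KO against Het addresses the loss of the second copy where both groups carry Cre. No member was called by limma (smallest adjusted p = 0.998), as for 0% of all genes tested, and 0 members had an unadjusted p under 0.05 (2.61% of all genes were higher and 1.95% lower by that rule). Mta3 and Smarcc2 were above Het on all KO arrays (4.42% of all genes) and Dpf2 below (5.4%). The median difference was 0.13 with 26 members higher (46.9% of all genes), and it was 0.043 after another quantile normalization, 0.057 with interquartile range as a term, 0.028 without Het replicate 2 and 0.28 without Het replicate 3. Bcl11a itself differed by -0.41 (95% interval -1.05 to 0.23).

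Paralogs of the same subunit family were compared on each array as the log2 value of the first minus the second. This shows unequal change and no absolute ratio, and not all pairs share 1 place in a complex. Of 14 pairs in 3 comparisons none passed an exact permutation test, whose smallest p was 0.1, the lowest that 3 arrays against 3 can give (adjusted over 42 tests, 0.969). Chd3 minus Chd4 was 1.66, 1.11 and 1.68 on WT, 1.26, 1.15 and 0.72 on Het and 1.03, 0.99 and 0.51 on KO arrays. The KO arrays lay below all WT arrays and the ratio changed by -0.64 (exact permutation p = 0.1, adjusted 0.969). Bcl7a minus Bcl7b was 1.38, 1.54 and 0.22 on WT and -0.22, 0.18 and -0.42 on Het arrays, a change of -1.20 with no overlap (exact permutation p = 0.1, adjusted 0.969). Smarcd1 minus Smarcd2 was 1.80, 1.97 and 1.83 on Het and 1.68, 1.45 and 1.15 on KO arrays, a change of -0.44. Chd3 and Smarcd1 each have a second probe set that disagreed in direction, as given above. Groups of single genes failed to overlap in 1 direction for 3.9% to 7.32% of genes in these comparisons. Smarca2 minus Smarca4 changed by 0.10 and Arid1a minus Arid1b by 0.18 between WT and KO cells.

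**Figure D5:**
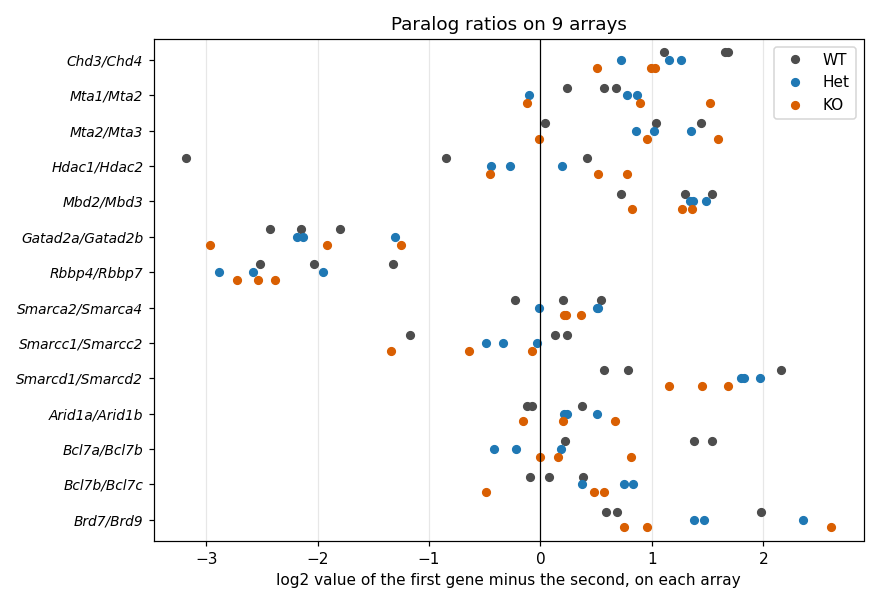
Log2 value of the first gene minus the second (x axis) for 14 pairs of paralogs (y axis) on 9 arrays; points are arrays coloured by genotype. The Chd3/Chd4 points of KO arrays, from 0.51 to 1.03, lie below those of WT arrays, from 1.11 to 1.68, while most other pairs overlap.

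Further genes of these complexes and DNA-binding partners of BCL11A made a list of 56, of which 53 had a probe set of their own and 51 were tested. None was called by limma in any of the 3 comparisons. At an unadjusted p under 0.05, 5 of the 51 were higher and 1 lower in KO than in WT. Both directions together made 11.8% of the list. The rule took 5.4% of all genes as higher and 2.81% as lower, together 8.21%. In Het against WT 2 were higher and 0 lower (3.12% and 1.77% of all genes), and in KO against Het 0 were higher and 1 lower (2.61% and 1.95%). Together these made 3.92% and 1.96% of the list, against 4.89% and 4.56% of all genes. Zfpm1 encodes FOG1, a cofactor of GATA factors that also binds NuRD. It read 7.03, 7.61 and 7.16 on WT, 7.83, 8.17 and 8.37 on Het and 8.02, 7.89 and 7.62 on KO arrays. All Het and KO arrays lay above WT, by 0.86 (adjusted p = 0.758) and 0.58 (adjusted p = 0.592).

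Bicra, a subunit of non-canonical BAF, read 5.19, 5.97 and 6.13 on WT, 7.33, 6.72 and 6.86 on Het and 6.73, 6.44 and 6.33 on KO arrays. The Het and KO arrays again lay above WT, by 1.21 (adjusted p = 0.731) and 0.74 (adjusted p = 0.57), against the same 3 WT arrays; the KO difference was 0.45 without WT replicate 1. Tbl1x, which helps exchange NCoR for activators, was 0.82 above WT in KO cells (adjusted p = 0.549) and 0.517 above without WT replicate 1. Sap30l of the SIN3 complex was 0.98 above WT (adjusted p = 0.563) and 0.498 above without WT replicate 1. Dnmt3b, a DNA methyltransferase, was 0.68 above WT (adjusted p = 0.595) and 0.405 above without KO replicate 1. Dpf3, a paralog of Dpf2, was -0.72 from WT in KO cells, but at 4.08 ± 0.231 and 3.35 ± 0.157 it read no higher than absent transcripts do. Gata2, a transcription factor of HSCs, read 5.13, 8.22 and 8.17 on WT and 7.81 to 8.60 on KO arrays, WT replicate 1 being apart as for Hdac1. The paralog Bcl11b stayed at or below 4.66 on all arrays and the partner Sox6 at or below 4.61.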

How the data were processed

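The deposited file holds log2 expression per probe set; the authors summarised it with RMA, according to the submitters' processing notes, and the version and settings of RMA are not stated there. The labels' protocols describe amplification of RNA from sorted cells ahead of labelling, which can widen the spread between arrays, and RMA compresses differences of dim transcripts. A single gene symbol was listed for 23521 of 41345 probe sets, and 23328 of these symbols were updated through gene identifiers. Where a gene had several such probe sets, the one brightest on average stood for it, giving 22180 genes. Tests covered the 16636 genes whose mean reached the 25th percentile of all genes (log2 3.31).

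Genotype means were fitted over all 9 arrays with limma 3.58.1 in R 4.3.3 (lmFit, eBayes; 6 residual and 4.26 prior degrees of freedom), and p-values are two-sided, adjusted by Benjamini-Hochberg over all genes tested. With 3 arrays a genotype, KO minus WT had a median standard error of 0.298. Alternatives changed the filter, the probe set rule, the normalization, the prior variance, the arrays in the fit, and added replicate number, sex, array weights or interquartile range; 1 alternative, leaving out both WT replicate 1 and KO replicate 3, was chosen after seeing the data. Values are given in full for Bcl11a, for members with an unadjusted p under 0.05 and for the 2 members per complex with the smallest p in each comparison; Chd4, Dpf2, Brd9, Gata2, Bcl11b and Sox6 were added after their values were seen. The members and lists were chosen with earlier results of these data known. Same-numbered arrays of different genotypes deviated from their group means with correlations of -0.209 to 0.236, 1 of 9 pairs being over 0.1, so the numbers were not taken as pairs.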

Additional observations from a re-analysis of the deposited data

Results flagged for a closer look

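Results for Bcl11a and for the members picked by p-value, as described above, were examined in both sexes. Among these 22 results, the mean differences of female and of male mice had opposite signs in 4. In 2 of these, each array of the first genotype lay above each array of the second in 1 sex and below in the other; the difference between the sexes was not tested. Bcl11a in Het minus WT was 0.335 among female mice (1 Het and 2 WT arrays) and -0.455 among male mice (2 and 1). Kdm1a in KO minus Het was -0.120 among female mice (1 array each) and 0.540 among male mice (2 each). With 1 array each, unequal values are always wholly apart, so the rule could not fail for the female mice. The female arrays read 7.63 (Het) and 7.51 (KO), and the SD within a genotype was 0.226. Some members outside the 22 results also lay wholly opposite ways in KO minus WT. Among them were Hdac3 (-1.205 among female and 1.925 among male mice), Brd9 (-1.9 and 1.235) and Dpf2 (-1.84 and 0.22). The female KO array is KO replicate 3 in each.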

How the results depend on the processing

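No member was called in any comparison under the alternatives run: 10 settings, each of the 9 arrays left out in turn (range 0 to 0), and WT replicate 1 and KO replicate 3 left out together. The smallest adjusted p of a member was 0.247, for Bcl7a in KO minus WT without WT replicate 3. Bcl11a in KO minus WT lay between -0.699 (array weights) and -0.223 (mean of both probe sets), between -0.78 and -0.36 when single arrays were left out, and was never called. In Het minus WT Bcl11a turned to 0.013 with sex as a term. Without single arrays, Dnmt1 in Het minus WT lay between -0.05 (without WT replicate 2) and 0.193, and Rcor1 in KO minus Het between -0.045 (without Het replicate 2) and 0.49; the cause was not tested. With replicate number as a block, 0 members were called and Bcl11a in KO minus WT was -0.513 (adjusted p = 0.7), so the block changed no call. At an unadjusted p under 0.05, members numbered 0 to 4 in KO minus WT, 0 to 2 in Het minus WT (1 in the reported fit) and 0 to 4 in KO minus Het (0 in the reported fit) across the alternatives. The 95% interval of a member extended a median of 0.637 on the log2 scale to either side, and KO minus WT differences as large as 1.34 (Hdac1) were not called, so the absence of calls does not show that levels were equal. Paralog ratios could not pass with 3 arrays against 3, whatever the setting.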
